A study of Mus musculus with 6 samples.

Results

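The minichromosome maintenance (MCM) genes Mcm2 to Mcm10 were followed in mouse tongue RNA on single-colour Agilent expression arrays. All 9 genes of that name series were found on the array by the transcript accession of each probe, and they were read by 10 of the 55681 non-control probes, 1 per gene except Mcm8 with 2. Among the 26256 genes and unnamed probes that could be tested, the family makes up 9. The tissue came from C57Bl6 iDek mice, all of which carried a DOX-inducible Dek construct that the labels describe as both ubiquitous and specific to squamous cells. DOX is doxycycline, the antibiotic that switches such constructs on, and Dek encodes a chromatin protein. The groups were 3 mice given DOX for 2 weeks and 3 untreated mice of the same genotype. Age and the promoter that drives the construct are not given in the sources used here. Mice without the construct that received DOX were not analysed here, and an effect of DOX itself cannot be told apart from one of induced Dek. The series title speaks of a carcinogen, and the labels of the mice name none. The family was selected on this same contrast, since differences of some of its members between DOX and no DOX were already known from these arrays. Its values are therefore given as a description and not as an independent test.

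MCM2 to MCM7 form the ring-shaped helicase core that unwinds DNA in front of the replication fork. The ring is loaded onto origins in G1 as an inactive double hexamer by the origin recognition complex, CDC6 and CDT1, and is switched on in S phase when CDC45 and the GINS proteins join it. MCM10 is not part of the ring and helps the activated helicase to start. MCM8 and MCM9 are relatives that act as a pair in homologous recombination and DNA repair, outside origin licensing. Transcription of the MCM2 to MCM7 genes is known to depend on E2F factors. In stratified epithelia such as that of the tongue, MCM proteins mark basal and parabasal cells that are able to replicate.

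Since most members moved together, their promoters were read for letters that E2F factors are known to bind. RefSeq windows on GRCm38.p6, running from 250 bases before to 50 bases after an annotated start, were on hand for 8 of the 9 genes, with 2 windows for Mcm7 and none for Mcm4. The E2F words searched on both strands were TTTCCCGC, TTTCGCGC, TTTGCCGC and TTTGGCGC. At least 1 of them lay in the windows of Mcm3, Mcm5, Mcm6 and Mcm8 and in 1 of the 2 windows of Mcm7, as in 2.26% of all 32851 windows, or 3.43% of the 15268 windows of genes tested on the array. The windows of 4 genes follow in lower case, 5′ to 3′, with the E2F words in capitals: Mcm5 and Mcm10 as the members with the largest differences, Mcm6 as the one with the most words, and Mcm8 as a member that holds a word and did not pass the threshold described further on.
Mcm5, chr8:75109259-75109558, plus strand: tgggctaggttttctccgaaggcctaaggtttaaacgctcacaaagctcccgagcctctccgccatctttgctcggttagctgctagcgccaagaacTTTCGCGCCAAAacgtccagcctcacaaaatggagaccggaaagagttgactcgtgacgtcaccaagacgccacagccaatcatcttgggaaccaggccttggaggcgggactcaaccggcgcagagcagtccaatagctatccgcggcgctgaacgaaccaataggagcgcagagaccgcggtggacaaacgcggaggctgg
Mcm6, chr1:128359656-128359955, minus strand: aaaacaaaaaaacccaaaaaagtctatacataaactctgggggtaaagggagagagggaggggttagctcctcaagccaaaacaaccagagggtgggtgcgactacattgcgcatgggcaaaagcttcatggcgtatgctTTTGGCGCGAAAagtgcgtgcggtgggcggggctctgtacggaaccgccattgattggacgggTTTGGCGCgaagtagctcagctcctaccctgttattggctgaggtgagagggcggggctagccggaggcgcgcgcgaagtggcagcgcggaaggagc
Mcm10, chr2:5012742-5013041, minus strand: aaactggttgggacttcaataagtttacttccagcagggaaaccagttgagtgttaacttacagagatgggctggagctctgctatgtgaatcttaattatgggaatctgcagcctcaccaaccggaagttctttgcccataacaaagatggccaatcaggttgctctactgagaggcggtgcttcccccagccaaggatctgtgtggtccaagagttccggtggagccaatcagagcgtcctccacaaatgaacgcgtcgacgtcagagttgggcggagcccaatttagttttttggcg
Mcm8, chr2:132815891-132816190, plus strand: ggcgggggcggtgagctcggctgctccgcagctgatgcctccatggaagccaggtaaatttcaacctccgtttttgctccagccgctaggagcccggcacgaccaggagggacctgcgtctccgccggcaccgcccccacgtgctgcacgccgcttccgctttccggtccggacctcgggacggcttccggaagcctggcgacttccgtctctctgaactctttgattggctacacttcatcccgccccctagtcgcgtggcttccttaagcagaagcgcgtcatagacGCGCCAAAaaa
The 2 words of Mcm5 overlap and begin at positions -153 and -149 from the start. Mcm6 has an overlapping pair at -110 and -106 and a further word at -47. The word of Mcm8 begins at base 40 after the start. Of the 6 genes that passed the threshold and have a window, 4 hold an E2F word. No word was found in the windows of Mcm2, Mcm9 and Mcm10, which says only that no whole word lies inside them. The window of Mcm10 ends in TTTGGCG, the start of the word TTTGGCGC, and the next base lies outside the window and was not read. The NF-Y word CCAAT was in all 9 member windows, against 37.0% of the windows of tested genes, and the Sp1 word GGGCGG in 8 of 9, against 56.9%. The cell cycle element TTTGAA was in 1 of 9, that of Mcm2, against 12.6%. A match is a description of the sequence and no evidence of binding.

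Values are log2 processed signals from which the 75th percentile of each array was subtracted, so that 0 is the level of that percentile. They are normalised log2 signals of 1 probe each and do not rank 1 gene against another. Groups were compared by limma across all probes, with Benjamini-Hochberg adjustment and a threshold of 0.05, and ± after a log2 difference is its standard error. All 9 genes were tested. Of the 9, 7 were higher with DOX and past the threshold (Mcm2, Mcm3, Mcm4, Mcm5, Mcm6, Mcm7 and Mcm10), 0 were lower and past it, and Mcm8 and Mcm9 did not pass. Over the whole array 0.278% of the 26256 genes and unnamed probes tested were higher and past the threshold, and 0.126% were lower. In 8 of the 9 genes each DOX array lay above each array without DOX, a pattern found in 12.7% of everything tested. The median log2 difference was 1.36 over the 9 genes and 1.41 over Mcm2 to Mcm7, against -0.006 over everything tested. With either replicate 1 or replicate 2 of the no DOX group left out, 0 of the 9 genes passed in limma, and 8 of 9 had an unadjusted p under 0.05 in each of those fits. Over the whole array 3616 of 26571 features did so without untreated replicate 1 and 3613 of 26492 without untreated replicate 2. Leaving out no DOX replicate 3, and likewise leaving out DOX replicate 1, Mcm5 alone passed. Without DOX replicate 2, 3 passed (Mcm5, Mcm6 and Mcm10), and without DOX replicate 3, 2 passed (Mcm5 and Mcm10). With no filter on dim probes 0 of 9 passed in limma, with 8 of 9 at an unadjusted p under 0.05, against 5568 of all 48718 features. The contrast that gave these counts is the one on which the family was selected.

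The 6 ring subunits were all higher, by 1.68-fold to 3.70-fold. Mcm5 (chr8:75109468-75128439 on GRCm38.p6), which closes the gate of the ring together with Mcm2, had normalised log2 signals of 1.98, 1.67 and 1.70 in DOX replicates 1 to 3, against -0.11, -0.20 and -0.01 in no DOX replicates 1 to 3. Its groups were separated by a gap of 1.68, and it was 3.70-fold higher with DOX (log2 difference 1.89 ± 0.13, n = 3 and 3, adjusted p = 0.0111 in limma). Mcm2 (chr6:88883474-88898780), its neighbour at the gate, had 0.36, 0.29 and 0.47 with DOX, against -0.73, -1.13 and -1.10 without. No DOX replicate 1 was the highest of its group, still 1.02 below the lowest DOX array, and the difference was 1.36 ± 0.14 (2.57-fold).

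Mcm3 (chr1:20802966-20820312), the partner of Mcm5 in the ring, had normalised log2 signals of 2.13, 1.89 and 1.90 with DOX, against 0.54, 0.10 and 0.33 without. The lowest DOX array was 1.35 above the highest array without DOX, and the difference of 1.65 ± 0.15 is a 3.14-fold one. Mcm4, Mcm6 and Mcm7 form the subcomplex that has helicase activity on its own in a test tube. Mcm4 (chr16:15623897-15637400) had 2.90, 2.63 and 2.68 with DOX, against 1.61, 1.37 and 1.49 without, a difference of 1.24 ± 0.12 (2.37-fold). Mcm6 (chr1:128331575-128359705) had 3.69, 3.55 and 3.74 with DOX, against 2.39, 2.01 and 2.24 without, a difference of 1.45 ± 0.13 (2.73-fold). Neither gene had overlapping groups.

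Mcm7 (chr5:138164583-138172111) had the smallest difference of the 6 subunits. Its signals were 2.96, 2.86 and 2.94 with DOX, against 2.19, 2.10 and 2.24 without, a difference of 0.75 ± 0.10 (1.68-fold, 95% interval 1.42 to 1.97). It was also the member nearest to the threshold among those that passed (adjusted p = 0.0470 in limma). The within-array difference between the Mcm5 and Mcm7 values, each centred on its own mean without DOX, was 1.30, 1.09 and 1.04 on the DOX arrays, against -0.02, -0.01 and 0.03 on the arrays without DOX. The subunits thus changed by unequal amounts on the log2 scale, a difference that was described and not tested. The Mcm7 gene also holds the hairpins of Mir25, Mir93 and Mir106b on its own strand, and these miRNAs were not analysed here. Its head-to-head neighbour Ap4m1 encodes an adaptor subunit for vesicle transport. Ap4m1 starts 138 bases away from the start used for the more upstream Mcm7 window. The Mcm7 span given above extends upstream of that Mcm7 start. Ap4m1 did not pass (log2 difference -0.26 ± 0.11, adjusted p = 0.259 in limma).

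**Figure D1:**
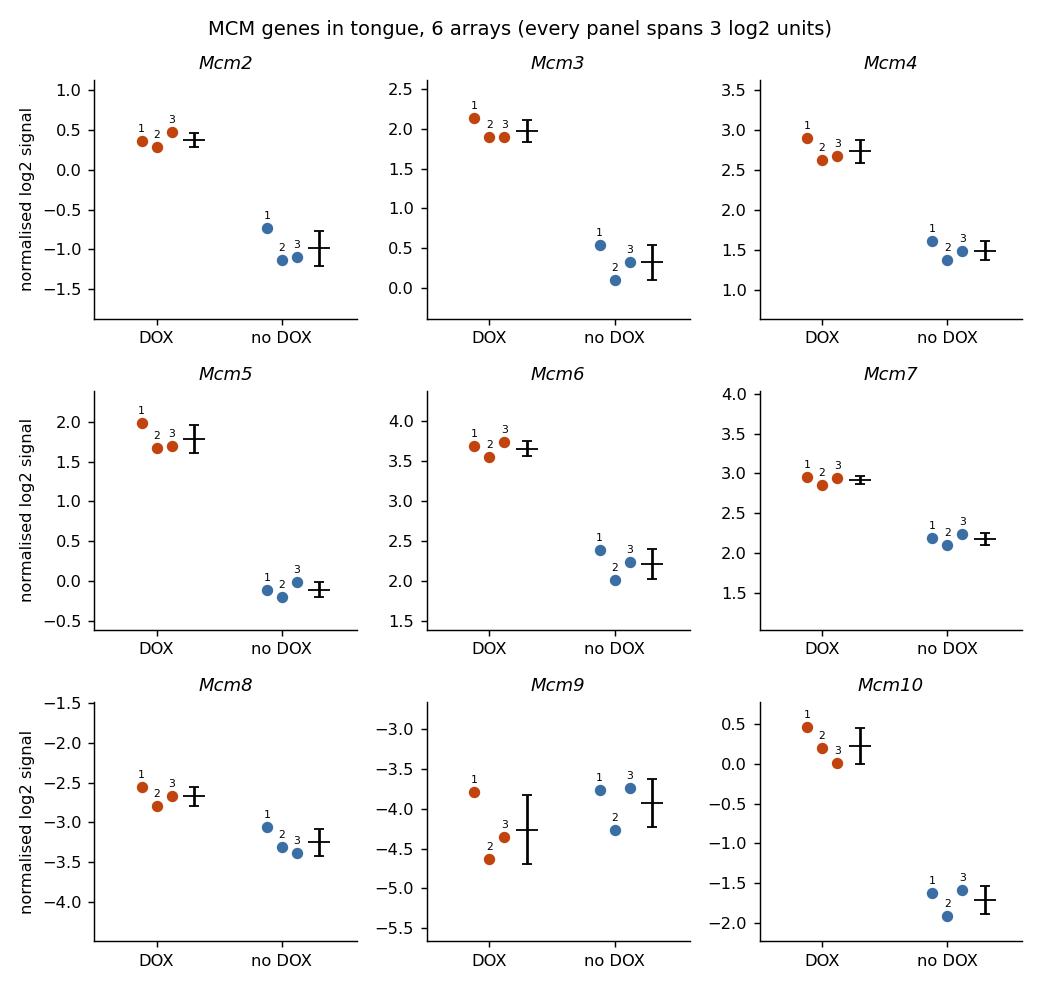
Normalised log2 signal (y axis, 0 is the array's 75th percentile) of each MCM gene on the 3 DOX and 3 no DOX arrays. Numbered points are replicates, the dash and bar are the mean and SD, and every panel spans 3 log2 units; the groups are apart in every panel except that of Mcm9.

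Mcm10 (chr2:4990724-5012791), the factor that helps the loaded helicase to start, had the largest difference of the family in these processed signals. Its normalised log2 signals were 0.46, 0.20 and 0.01 with DOX, against -1.62, -1.91 and -1.59 without. The lowest DOX array lay 1.59 above the highest array without DOX. The difference of 1.93 ± 0.16 corresponds to 3.80-fold (95% interval 2.93 to 4.94). Normexp, a background correction, was run with an offset of 50 added to every signal, which by itself shrinks log2 differences of dim probes. With normexp the Mcm10 difference was 1.29 ± 0.10, below the 1.70 ± 0.11 of Mcm5. The share of the offset in this shift was not tested. Mcm2 showed a like shift, to 1.06 ± 0.09, while the bright probe of Mcm7 was at 0.73 ± 0.07.

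The repair relatives Mcm8 and Mcm9 did not pass the threshold. Both probes of Mcm8 (chr2:132816137-132844197) were well above background on all 6 arrays and both were higher with DOX. The brighter probe had signals of -2.56, -2.79 and -2.67 with DOX, against -3.06, -3.31 and -3.38 without. Its difference was 0.57 ± 0.13 (95% interval 0.27 to 0.88, adjusted p = 0.106 in limma). The dimmer probe gave 0.84 ± 0.15 (adjusted p = 0.0832). With normexp these differences were 0.18 ± 0.07 and 0.23 ± 0.09. The 2 Mcm8 probes read the same gene and are not separate evidence.

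Mcm9 (chr10:53536315-53630006) was the only member with a lower mean with DOX, and its groups overlapped. Its signals were -3.79, -4.63 and -4.36 with DOX, against -3.77, -4.27 and -3.74 without. The scanner software called it well above background on 1 of 3 DOX arrays, against 3 of 3 without DOX. Its spot signal was 10.2 to 19.3 intensity units with a scanner error of 16.5% to 27.8%, against errors of at most 10.6% for Mcm2 to Mcm7 and Mcm10. The difference was -0.33 ± 0.25, with a 95% interval of -0.93 to 0.27 (adjusted p = 0.525 in limma). Mcm9 was tested only because the untreated arrays met the filter, so this interval rests on DOX signals that were mostly not well above background. With normexp the difference was -0.03 ± 0.07, and depth of signal limits what this probe can show.

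**Figure D2:**
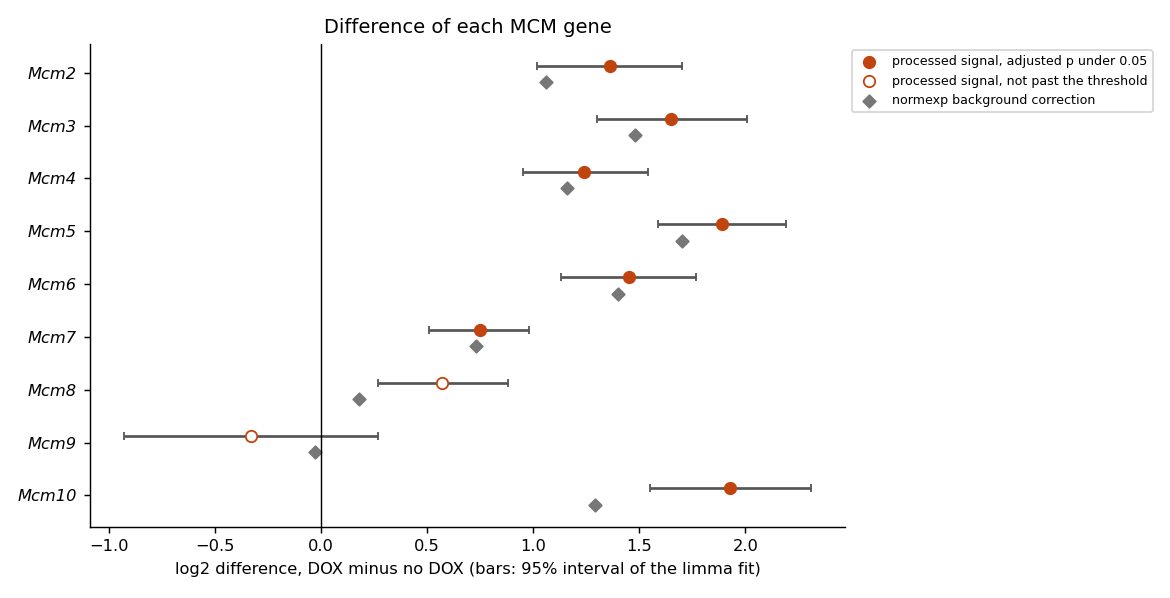
Log2 difference between DOX and no DOX (x axis) for each MCM gene, with the 95% interval of the limma fit as bars, filled circles past an adjusted p of 0.05 and grey diamonds for normexp. Mcm2 to Mcm7 and Mcm10 lie between 0.75 and 1.93, Mcm8 at 0.57 and Mcm9 at -0.33.

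The sizes of these differences moved less than the calls when 1 array was left out. Mcm5 stayed between 1.79 and 1.94 and Mcm7 between 0.71 and 0.78, with Mcm3 at 1.54 to 1.76, Mcm6 at 1.35 to 1.54 and Mcm10 at 1.81 to 2.04. Mcm9 ranged from -0.57 to -0.15. Each left-out fit has fewer samples and its own adjustment over all probes.

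**Figure D3:**
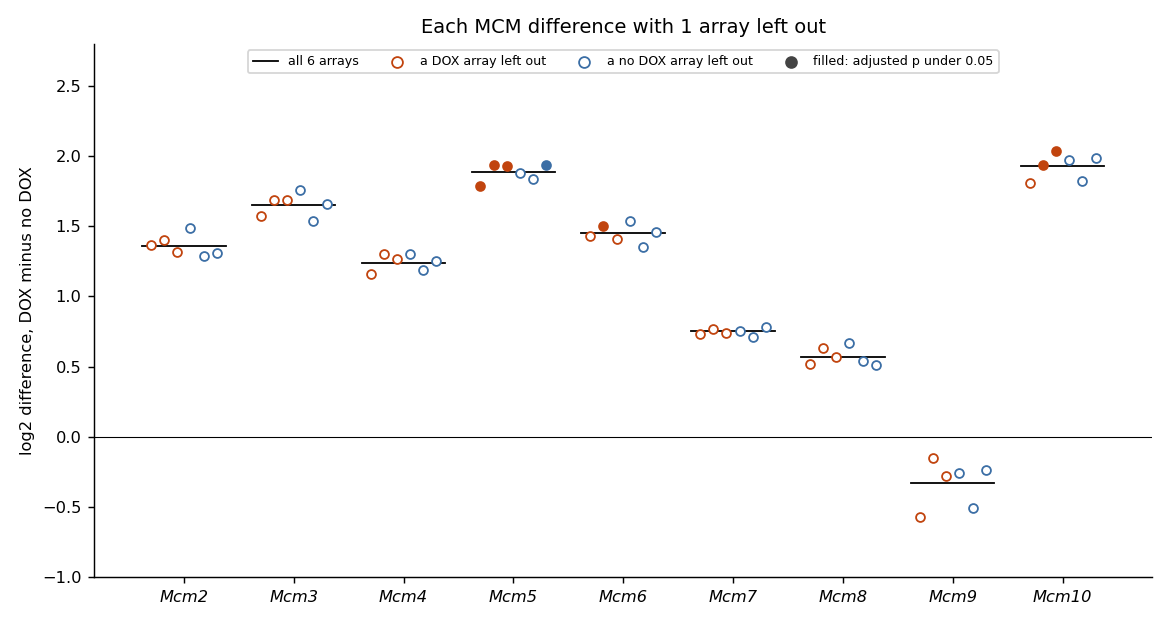
Log2 difference between DOX and no DOX (y axis) of each MCM gene with 1 array left out, in red for a DOX array and in blue for an array without DOX, filled where the adjusted p was under 0.05. The line is the value with all 6 arrays; Mcm5 stays between 1.79 and 1.94 and is filled in 4 of 6 fits.

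The 6 ring subunits had the same lowest array within each group. How many features over the whole array share that order was not counted. DOX replicate 2 was the lowest DOX array for all 6 ring subunits, and no DOX replicate 2 was the lowest array without DOX for all 6. The order was not particular to the ring: Mcm9, Cdt1, Tonsl and E2f1 also had replicate 2 lowest in both groups. Margins could be small, as for Mcm3 with DOX (1.89 against 1.90). Mcm10 was lowest in DOX replicate 3 among the DOX arrays, and Mcm8 was lowest in no DOX replicate 3 among the untreated ones. Each gene was centred on its mean without DOX, and the median of Mcm2 to Mcm7 was then taken array by array. It was 1.44, 1.31 and 1.49 in DOX replicates 1 to 3, against 0.15, -0.13 and 0.02 in no DOX replicates 1 to 3. Of 14428 named genes outside the family, the 6 with the smallest root mean square difference from this profile over the 6 arrays were Chaf1b, Rad54l, Pole, Hyou1, Tonsl and Rad51ap1. Their distances were 0.07 to 0.14 log2 units, against a median distance of 1.02 over all genes compared. The distance includes the difference between DOX and no DOX, so a gene without such a difference is far from the profile by construction. These 6 genes were thus picked for differences near that of the ring subunits, and the values below describe the choice. Chaf1b, a subunit of the CAF-1 histone chaperone that follows the fork, was nearest, with a log2 difference of 1.39 ± 0.12. Pole, the catalytic subunit of the leading strand polymerase, had 1.30 ± 0.10, and the recombination gene Rad54l had 1.30 ± 0.13. Hyou1, a chaperone of the endoplasmic reticulum, had 1.38 ± 0.19 and did not pass (adjusted p = 0.0521 in limma).

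**Figure D4:**
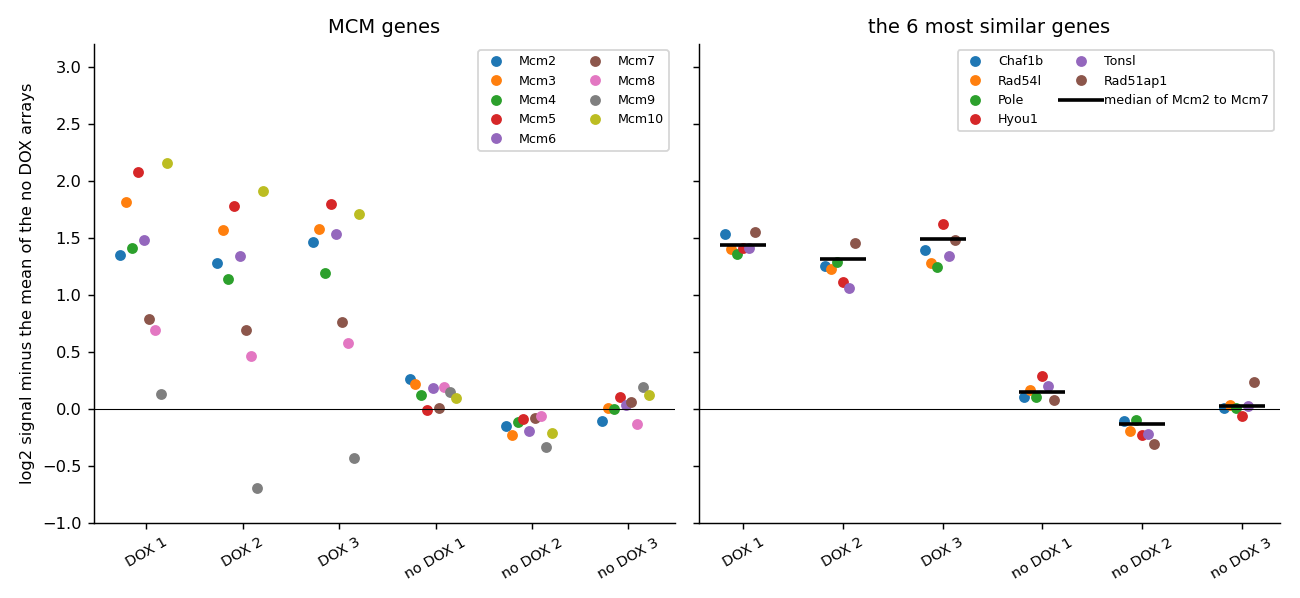
Log2 signal minus the mean of the no DOX arrays (y axis) on each array (x axis), for the 9 MCM genes on the left and for the 6 most similar genes on the right, with the median of Mcm2 to Mcm7 as black dashes. Mcm2 to Mcm7 and Mcm10 lie at 0.69 to 2.16 on the DOX arrays, and Mcm9 at 0.13, -0.70 and -0.43.

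Of 43 tested genes that load, start, bind or unload the MCM ring, 8 rose with DOX, 0 fell and 35 did not pass. Over everything tested 0.278% were higher and past the threshold and 0.126% were lower. The median log2 difference of the 43 genes was 0.43, against -0.006 over everything tested. The median log2 difference of the 7 tested genes of loading was 0.43, and 2 of them rose. These were the loaders Cdc6, with signals of -2.27, -2.64 and -2.35 with DOX against -4.29, -4.02 and -4.60 without (1.88 ± 0.18), and Cdt1, with 2.51, 2.25 and 2.35 against 0.83, 0.50 and 0.78 (1.67 ± 0.13). Without DOX, 2 of 3 arrays measured Cdc6 above background, so this probe entered the test only through the DOX arrays. Cdc6 is counted among the 8 that rose on that footing, and its other tested probe was at 1.65. The origin recognition subunits did not pass: Orc6 was at 0.51 ± 0.10, Orc2 at 0.43 ± 0.13, Orc5 at 0.21 ± 0.11, Orc3 at 0.06 ± 0.12 and Orc4 at -0.20 ± 0.10. Orc1 was not tested, since its probe failed the filter on dim signals.

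Of 7 tested genes that restrain loading or remove CDT1, Dtl rose, with signals of -0.57, -0.89 and -0.67 with DOX against -2.63, -2.73 and -2.78 without (2.01 ± 0.12). Dtl is the receptor of the ubiquitin ligase that degrades CDT1 in S phase. Gmnn, the CDT1 inhibitor geminin, was at 0.42 ± 0.12 and the F-box gene Skp2 at 1.02 ± 0.17, and neither passed. The median log2 difference of the 7 genes was 0.10, and 2 of the 7 had a lower mean. Of 11 genes that activate the loaded ring, 4 rose and all 11 had a higher mean. Their median log2 difference was 0.68, against -0.006 over everything tested. Those that rose were Ticrr, which brings CDC45 to the ring (1.57 ± 0.19), the GINS subunits Gins2 (1.02 ± 0.12) and Gins1 (0.93 ± 0.11), and Cdc45 (0.77 ± 0.10). Cdc45 did not pass with normexp or with the trend and robust settings, each of which called 10 partners. The other GINS subunits, Gins3 (0.05 ± 0.12) and Gins4 (0.12 ± 0.10), did not pass. Dbf4, the activator of the kinase that phosphorylates the ring, was at 0.15 ± 0.14.

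Of 13 tested binding partners, Tonsl rose (1.27 ± 0.15), a reader of newly made chromatin that also binds MCM proteins. The median log2 difference of the 13 was 0.45. Asf1b was next by p (1.20 ± 0.17, adjusted p = 0.0533 in limma). It passed with normexp and with the trend and robust settings, and not in the report's fit. Hrob, which recruits the MCM8 and MCM9 pair, was at 0.79 ± 0.13 and did not pass, nor did the fork protein Timeless (0.75 ± 0.14). Mcmbp, whose product binds MCM3 to MCM7, was at 0.06 ± 0.11, with its 3 probes between -0.02 and 0.17. Clspn, a fork checkpoint adaptor, was not well above background in any untreated mouse. It was at least 1.65-fold higher with DOX, a bound that sets the DOX mean against the dimmest detectable signal of each untreated array, or the Clspn signal if that was brighter. Clspn entered the test only through the DOX arrays, and its adjusted p of 0.0842 in limma supports no call. None of the 5 unloading genes passed, and their median log2 difference was 0.03. Lrr1, which targets the terminated helicase for removal, was at 1.73 ± 0.31 (adjusted p = 0.0780 in limma), and its other probe at 2.82. Ubxn7 went the other way, at -0.30 ± 0.11, while Traip was at 0.47 ± 0.22 and Faf1 at 0.03 ± 0.11. The other probes of Ubxn7, Traip and Faf1 were at 0.00, 0.66 and 0.43. The count of 8 became 0 without no DOX replicate 1 or 2, 3 without DOX replicate 2, and 1 when DOX replicate 1, DOX replicate 3 or the untreated replicate 3 was left out. At an unadjusted p under 0.05, 24 of the 43 partners passed when untreated replicate 1 was left out and 23 when untreated replicate 2 was, against 3616 of 26571 and 3613 of 26492 features over the whole array.

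**Figure D5:**
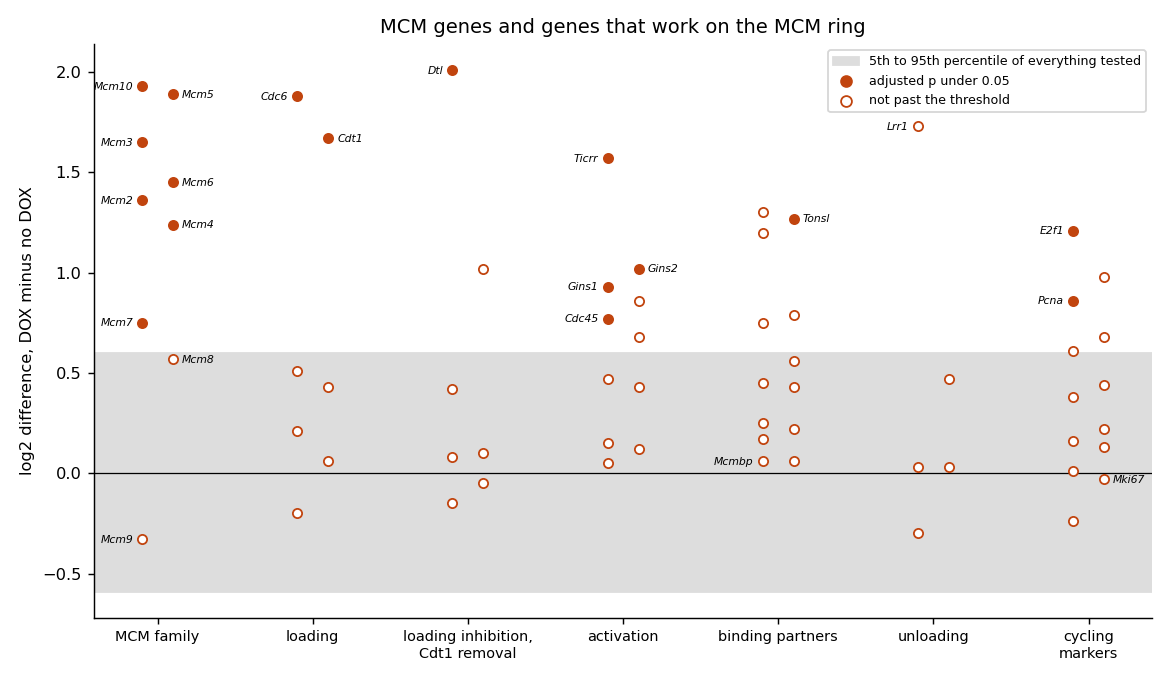
Log2 difference between DOX and no DOX (y axis) for the MCM family, its partners by role and markers of cycling cells, filled where the adjusted p was under 0.05. The grey band spans the 5th to 95th percentile of everything tested (-0.59 to 0.60); Mcm2 to Mcm7 and Mcm10 lie above it and Mcm8 and Mcm9 within it.

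Of 13 tested markers of cycling cells, 2 rose and 11 did not pass, while 0.278% of everything tested was higher and past the threshold. Those that rose were E2f1, a transcription factor of the G1 to S transition (1.21 ± 0.11), and Pcna, the sliding clamp of the fork (0.86 ± 0.10). Mki67, a marker of cells in any cycling phase, had signals of 2.77, 2.87 and 2.44 with DOX, against 2.65, 2.39 and 3.12 without. Its groups overlapped, with a difference of -0.03 ± 0.22 (95% interval -0.54 to 0.49). Of the 13 markers, 11 had a higher mean with DOX, with a median log2 difference of 0.38 against -0.006 over everything tested. Next to those that passed stood Ccne1, a G1 to S cyclin (0.98 ± 0.15, adjusted p = 0.0629 in limma), Bub1, a mitotic checkpoint kinase (0.68 ± 0.20), E2f2 (0.44 ± 0.13) and the cell cycle kinase Cdk1 (0.61 ± 0.24). The remaining markers were Top2a (0.38 ± 0.28), Foxm1 (0.22 ± 0.22), Ccna2 (0.16 ± 0.20), Birc5 (0.13 ± 0.25), Plk1 (0.01 ± 0.24) and Ccnb1 (-0.24 ± 0.24). In bulk tissue, a changed number of replicating cells and a changed amount of MCM RNA per cell cannot be told apart.

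Markers of tongue epithelium and skeletal muscle were present on all arrays, and 0 of 9 and 0 of 8 of them passed in limma. The summed signal relative to the 75th percentile was 1630 to 1920 with DOX against 1390 to 1910 without for epithelium, and 2580 to 3310 against 2470 to 3250 for muscle. Basal keratinocyte markers, of which 0 of 8 passed, summed to 631 to 795 with DOX and 619 to 838 without. Their median log2 difference was -0.35, and 6 of the 8 had a lower mean with DOX, among them Dst (-1.14 ± 0.27), Itga6 (-0.49 ± 0.13), Col17a1 (-0.47 ± 0.17) and Krt15 (-0.46 ± 0.19). The 4 tested probes of Dst ranged from -1.14 to -0.06. The abundant keratins Krt14 (0.43 ± 0.35) and Krt5 (0.06 ± 0.15) had the higher means. Salivary or lingual gland markers differed between animals. Of 7 tested, 0 passed, with sums of 304 to 611 with DOX and 190 to 455 without. They went both ways, with log2 differences of 6.51 ± 1.64 for Bpifa2, 4.16 ± 0.96 for Car6, 2.55 ± 0.46 for Lpo and 1.82 ± 0.28 for Bhlha15, and of -0.76 ± 0.29 for Dcpp1, -0.98 ± 0.43 for Aqp5 and -4.22 ± 1.92 for Klk1. Bpifa2, the one with the largest difference, had signals of 7.65, 8.80 and 7.17 with DOX and 2.16, -2.50 and 4.43 without. In the same no DOX replicates 1 to 3 the centred Mcm2 to Mcm7 medians were 0.15, -0.13 and 0.02. No untreated array reached the Bpifa2 signals of the DOX arrays, and a relation between Bpifa2 and the MCM values was not tested. Of the leukocyte markers 1 of 7 passed, the T cell gene Cd8a, which fell at least 1.72-fold. Over everything tested 0.126% were lower and past the threshold. Cd8a was above background on 0 of 3 DOX and 3 of 3 untreated arrays, so it entered the test only through the group where it was high. By group mean, 3 of the 7 lay above the untreated arrays and 4 below. Lyz2 was at 1.03 ± 0.17 (adjusted p = 0.0704 in limma) and Cd68 at 0.26 ± 0.17. Ptprc was at -0.37 ± 0.14 and the T cell gene Cd3e at -0.04 ± 0.10. The leukocyte sums were 16.4 to 19.7 with DOX against 16.2 to 17.2 without. A lymphocyte list that shares Cd8a and Cd3e had 4 tested markers, all down by group mean. Its sums were 5.78 to 6.11 with DOX against 6.16 to 6.7 without. None of 5 endothelial and 6 fibroblast markers passed, with sums of 16.9 to 19.3 and 121 to 188 with DOX, against 17.8 to 18.9 and 143 to 170 without. Of the 6 fibroblast markers, 5 had a lower mean with DOX, among them Col3a1 (-1.19 ± 0.29) and Col1a2 (-0.66 ± 0.26). The median was -0.24 for the fibroblast markers and 0.02 for the endothelial ones. The part of these cell types in the MCM result was not tested.

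Dek itself was 0.17 ± 0.11 higher on the log2 scale and did not pass (adjusted p = 0.456 in limma), and the part of the transcript that its probe reads is not given, so it does not check the labels. The clock genes Dbp and Nr1d1 differed strongly between the same groups, by -3.04 ± 0.20 and -2.89 ± 0.13. The hour of sampling is not given in the labels, and the part of the clock in the MCM result was not tested. All 6 arrays lay on 1 slide. DOX replicates 2 and 3 were in row 2. DOX replicate 1 was in row 1, column 4, and no DOX replicates 1 to 3 were in row 1, columns 1 to 3. The centred Mcm2 to Mcm7 median was 1.44 in DOX replicate 1 and -0.13 to 0.15 on the arrays without DOX. The part of slide position in the MCM result was not tested. Between 56.0% and 58.3% of probes were well above background on each array, and no spot was saturated. With 3 arrays a group, precision is limited by their number.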

How the data were processed

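Tongue RNA of 6 mice was labelled with Cy3 and hybridised to 1-colour Agilent arrays, per the labels' protocols. Per the file headers, the deposited scanner files hold the processed signal intensity of each spot, from which Agilent Feature Extraction 11.5.1.1 had subtracted background. The deposited value table is the same signal intensity times 1 factor per array, and the sources used here do not say how the factors were set. Medians of that table were 89.56, 97.01 and 92.86 for DOX replicates 1 to 3 and 101.67, 93.66 and 92.13 for no DOX replicates 1 to 3.

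Control spots and 146 to 195 outlier spots per array were left out, log2 signals of a probe's spots were averaged, and each array's 75th percentile was subtracted. Accessions were matched to a RefSeq gene table of GRCm38.p6, which gave 28331 probes 1 symbol and 27350 none. A probe was tested where it was well above background on all 3 arrays of a group, leaving 30934 probes for 26256 genes and unnamed probes, with the brightest probe standing for a gene. The fit used limma 3.58.1 under R 4.3.3, with two-sided moderated tests (lmFit, eBayes) adjusted over all probes. The members, lists and naming rule were chosen with earlier results of these data known. The rule named all members, up to 4 genes per partner list by smallest p, and the 6 nearest profiles. Orc3, Orc4, Orc5, Gins3, Gins4, Dbf4, Gmnn, Mcmbp, Clspn, Timeless, Ap4m1, the other cycling markers and the single cell type markers were named after their values were seen where that rule does not reach them. On simulated arrays with these means and spreads (30934 probes), the fit recovered 2% of changes of size 0.5, 74% of size 1 and 96% of size 2 on the log2 scale. In that run 13 unchanged probes were called as well, and 0 probes were called where no change was set. Normexp, with an offset of 50, was run on the median signal, since the mean signal is not among the columns used here. Alternatives covered background, scaling, filter, variance model, array weights, probe rule, threshold, a replicate block and each array left out.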

Additional observations from a re-analysis of the deposited data

How the results depend on the processing

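The 9 MCM differences kept their direction under the alternatives run, except that Mcm9 was not tested where probes had to be above background on all 6 arrays. The family median was 1.16 with normexp and within 1.29 to 1.49 otherwise. With quantile normalization, the median in place of the 75th percentile, or the percentile over probes above background on all arrays, Mcm7 alone of the 7 genes missed the threshold. With no filter on dim probes 0 MCM genes and 0 of 43 partner genes passed in limma, and 1 feature in all did (8, 26 and 5568 at an unadjusted p under 0.05). Deviations of same-numbered mice from their group means correlated at -0.115, -0.009 and 0.01, so the numbers were not taken to pair the samples. With the replicate block 0 MCM genes, 0 partners and 0 features passed in limma (8, 24 and 4732 at an unadjusted p under 0.05). That block leaves fewer residual degrees of freedom. Partners that passed numbered 16 with array weights and 17 at a threshold of 0.10. Features that passed, 106 in the report's fit, numbered 251 with normexp, 192 with trend and robust settings, 484 with array weights and 747 at a threshold of 0.10. With 1 array left out, 0 to 3 MCM genes, 0 to 3 partners and 3 to 51 features passed. The deposited value table gave the counts of the report. Dim probes, such as those of Mcm8 and Mcm9, are limited by their signal over background.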
